A study of Mus musculus with 8 samples.

Results

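The structural myelin genes Mbp, Mobp, Mal, Mag, Cnp, Mog, Cldn11, Tspan2 and Opalin encode membrane and membrane-associated proteins of the myelin sheath. They were selected by gene symbol and are 9 of the 29442 genes in the deposited count table. The choice was made with the values of the same comparison known, so their differences between the groups are given as a description. Counts of members past a threshold come from that same contrast and are no independent test. The mice were C57BL/6 J females aged 6 to 8 weeks, 4 in each group, and RNA of their ventral hippocampus was sequenced. The DHEA group had received dehydroepiandrosterone (DHEA), a steroid precursor of androgens, at 30 mg/kg/day by abdominal subcutaneous injection for 21 days. The control group had received sesame oil, the vehicle. Every direction below follows the deposited treatment labels. The study's own table of differing genes carries signs opposite to fold changes computed with these labels, and the directions of its qRT-PCR in further samples are those of that table. The deposited files do not settle whether the labels or the table are reversed. If the labels are, every difference below has the other sign. Whole tissue was sequenced, and the tissue holds several cell types.

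Myelin is the multilayered membrane that oligodendrocytes wrap around axons in the central nervous system. Most of its layers are pressed into compact myelin, held together on the cytoplasmic side by basic proteins such as MBP, while adhesion and cytoskeletal proteins occupy the non-compact inner layer and the loops beside the nodes. In the hippocampus, myelinated axons run mainly in the alveus, the fimbria and the perforant path.

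Every DHEA library had more counts than every sesame oil library. The totals were 38038361 counts in HipR3, 36792550 in HipR4, 35748416 in HipR7 and 36206289 in HipR11, which were the DHEA libraries. They were 32757366 in HipR5, 33109760 in HipR9, 35418297 in HipR10 and 31483772 in HipR16, which were the sesame oil libraries. This difference in total counts had p = 0.0286 (two-sided exact permutation test), the smallest p that 4 against 4 allow. The share of counts on the 13 mitochondrially encoded mRNAs also differed without overlap, with 8.02% ± 0.909 (SD, n = 4) in DHEA and 6.86% ± 0.364 (SD, n = 4) in sesame oil, and the exact permutation test again gave p = 0.0286 (two-sided). For 15594 genes, the log2 level in a library minus the gene's mean over the 8 libraries was correlated with GC content (Spearman). The correlation was -0.152 to -0.00961 in the DHEA libraries and 0.0684 to 0.178 in the sesame oil libraries, again without overlap. Such centred values compare libraries with each other and do not give the relation of level to GC content within a library. The part of depth, mitochondrial share and GC content in the results was not tested beyond the settings given below. HipR4 and HipR3 stood apart on the first principal component of 16813 genes, which held 29.6% of the variance, at scores of 55.8 and 23.1 against -20.8 to 0.793 in the other libraries. Choroid plexus markers, which mark tissue of the ventricle wall, summed to 96.4 CPM (normalized counts per 1000000 counts) in HipR4 and 519 CPM in HipR9, against 2067 to 4544 CPM in the other 6 libraries. Results are therefore also given without these libraries, and the labels name no batch, cage or dissection. The series record speaks of 6 tissues although 8 libraries were deposited, with HipR9 and HipR11 in a later block of accessions, so results without that pair are given too.

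The 9 members lie on several chromosomes, and only Cldn11 and Tspan2 share one, chromosome 3. The promoters of 4 members are shown because they carry the extremes of the pattern described below. Mal and Cldn11 varied most closely together over the libraries of any pair of members, and Mobp and Opalin least closely, by Pearson's r of their log2 levels. The sequences are the 250 bases before the annotated transcription start, 5′ to 3′ on the gene's strand, from RefSeq on build GRCm38.p6, while the counts were made on GRCm39. Capitals mark ACAAAG or ACAATG (core letters bound by SOX proteins), CTGGCAC or CTGGTAC (letters of the MYRF motif), AGAACA (an arm of steroid receptor elements) and TATAAA, on either strand.
Mobp (chr9:120149492-120149741, plus strand): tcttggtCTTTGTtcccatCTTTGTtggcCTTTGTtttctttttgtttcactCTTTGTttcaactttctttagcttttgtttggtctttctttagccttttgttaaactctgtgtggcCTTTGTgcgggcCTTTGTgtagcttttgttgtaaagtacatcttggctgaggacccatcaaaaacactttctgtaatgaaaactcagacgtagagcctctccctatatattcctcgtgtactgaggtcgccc
Opalin (chr19:41077114-41077363, minus strand): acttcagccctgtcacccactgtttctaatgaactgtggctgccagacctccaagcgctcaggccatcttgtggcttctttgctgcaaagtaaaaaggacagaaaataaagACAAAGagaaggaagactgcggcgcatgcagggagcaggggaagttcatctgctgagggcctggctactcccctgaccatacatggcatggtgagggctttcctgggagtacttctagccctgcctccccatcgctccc
Mal (chr2:127656696-127656945, minus strand): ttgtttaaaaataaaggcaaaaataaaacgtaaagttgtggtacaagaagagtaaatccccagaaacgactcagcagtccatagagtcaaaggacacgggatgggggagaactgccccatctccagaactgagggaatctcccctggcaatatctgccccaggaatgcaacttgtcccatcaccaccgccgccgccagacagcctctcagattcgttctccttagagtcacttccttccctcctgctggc
Cldn11 (chr3:31149670-31149919, plus strand): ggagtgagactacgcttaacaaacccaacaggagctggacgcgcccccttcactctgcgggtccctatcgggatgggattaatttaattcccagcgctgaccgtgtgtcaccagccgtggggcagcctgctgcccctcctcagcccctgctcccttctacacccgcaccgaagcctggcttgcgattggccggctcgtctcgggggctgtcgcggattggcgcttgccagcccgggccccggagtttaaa
The search covered 300 bases for each start, 250 before and 50 after it, in 11 windows of 8 members. The promoter of Mbp was not analysed here. ACAAAG was found in 5 of the 8 members, Tspan2, Mag, Mobp, Cnp and Opalin, and in 18.7% of all 32851 promoters. Mobp held 6 matches, each on the reverse strand, between 243 and 120 bases before the start. CTGGCAC was found in Mag, Cnp and Opalin, 3 of 8 members, in 4 of 11 windows and in 5.01% of all promoters. CTGGTAC was found in Mog, in 1 of 11 windows and in 2.24% of all promoters. AGAACA was found in 1 of the 2 windows of Tspan2 and in 19.0% of all promoters. ACAATG and TATAAA were found in 0 of the 8 members and in 12.6% and 13.6% of all promoters. Of the letters searched but not marked above, CANNTG (an E-box) was found in Tspan2, Mag, Cnp and Opalin. It was in 7 of 11 windows and in 72.3% of all promoters. CCAAT was found in Cldn11 and Mag, in 3 of 11 windows and in 37.4% of all promoters. CANNTG can overlap the other letters, and a match is a description of the sequence and not a binding site.

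All 9 structural myelin genes had higher mean levels in the libraries that carry the DHEA label. The log2 fold changes ran from 0.29 for Mag to 0.59 for Tspan2, with a median of 0.39 (1.31-fold), while the median over all 27612 genes tested was 0.01. Each member passed the filter of at least 1 count, and each had between 760 and 136296 counts in every library. All 9 were higher, as were 51.2% of all genes tested by any amount. By the quasi-likelihood test of edgeR, all 9 had an unadjusted p under 0.05, beside 4.82% of all genes tested that were higher at this threshold and 8.08% of the 12780 whose mean count was 100 or more, and this contrast was used in choosing them. No member had an adjusted p under 0.05, and 0 of all genes tested had one, which is 0% of them, while 2571 genes (9.31%) had an unadjusted p under 0.05. DESeq2 placed 153 genes below this adjusted threshold, and Mal, Cldn11 and Tspan2 were the 3 members among them. No member reached a 2-fold difference, which 1.6% of all genes tested showed at an unadjusted p under 0.05. In bulk RNA, more myelinating cells and more RNA per cell cannot be told apart.

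Among the proteins of compact myelin, Mbp encodes the basic protein that joins the cytoplasmic faces of the membrane. Its levels were 2913 CPM in HipR3, 3823 in HipR4, 2832 in HipR7 and 3171 in HipR11, and 2445 in HipR5, 2846 in HipR9, 2393 in HipR10 and 2010 in HipR16. HipR4 was highest and HipR16 lowest, and the groups overlapped only through HipR9, the sesame oil library that lay just above HipR7. The means were 3185 ± 449 CPM in DHEA and 2424 ± 342 CPM in sesame oil (SD, n = 4 each), a log2 fold change of 0.39 (standard error 0.10). Mobp encodes another small basic protein of compact myelin. Its levels were 372 CPM in HipR3, 480 in HipR4, 379 in HipR7 and 533 in HipR11, and 331 in HipR5, 401 in HipR9, 330 in HipR10 and 293 in HipR16. HipR11 was highest, and HipR9 exceeded both HipR3 and HipR7. The log2 fold change of Mobp was 0.38 (standard error 0.11), from 441 ± 78.9 CPM in DHEA and 339 ± 44.9 CPM in sesame oil (SD, n = 4 each).

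Mal encodes a proteolipid of lipid rafts that takes part in membrane trafficking to myelin. It was measured at 330 CPM in HipR3, 403 in HipR4, 332 in HipR7 and 424 in HipR11, and at 253 in HipR5, 298 in HipR9, 248 in HipR10 and 218 in HipR16. Here the groups did not overlap, and the log2 fold change was 0.55 (standard error 0.09). Cldn11 encodes the claudin that forms the tight junction strands between myelin layers. It was measured at 186 CPM in HipR3, 224 in HipR4, 188 in HipR7 and 238 in HipR11, and at 153 in HipR5, 173 in HipR9, 148 in HipR10 and 125 in HipR16. The groups again did not overlap, and the log2 fold change was 0.48 (standard error 0.09). Tspan2 encodes a tetraspanin of the oligodendrocyte membrane. It was measured at 199 CPM in HipR3, 253 in HipR4, 202 in HipR7 and 220 in HipR11, and at 142 in HipR5, 171 in HipR9, 147 in HipR10 and 120 in HipR16. Its lowest DHEA library lay above its highest sesame oil library, and its log2 fold change of 0.59 (standard error 0.09, 1.51-fold) was the largest of the 9. Mal, Cldn11 and Tspan2 were thus the 3 members without overlap, beside 2.42% of all genes tested, and 4.23% of those with a mean count of 100 or more, with every DHEA library above every sesame oil library.

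Of the proteins outside compact myelin, Cnp encodes a cyclic nucleotide phosphodiesterase that keeps cytoplasmic channels open in the sheath. Its levels were 372 CPM in HipR3, 456 in HipR4, 364 in HipR7 and 348 in HipR11, and 268 in HipR5, 357 in HipR9, 287 in HipR10 and 242 in HipR16. The groups overlapped through HipR9 and HipR11, and the log2 fold change was 0.42 (standard error 0.10). Mag encodes an adhesion protein of the layer next to the axon. It was measured at 167 CPM in HipR3, 188 in HipR4, 197 in HipR7 and 158 in HipR11, and at 142 in HipR5, 186 in HipR9, 139 in HipR10 and 115 in HipR16. HipR9 lay above HipR3 and HipR11, and the log2 fold change of 0.29 (standard error 0.11) was the smallest of the 9. Without HipR16 it was 0.18, and without HipR9 and HipR11 it was 0.48.

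Mog encodes an immunoglobulin-like protein of the outermost myelin surface. Its levels were 70.8 CPM in HipR3, 90.0 in HipR4, 78.3 in HipR7 and 78.6 in HipR11, and 63.8 in HipR5, 78.4 in HipR9, 58.0 in HipR10 and 47.0 in HipR16. HipR9 lay above HipR3 and slightly above HipR7, and the log2 fold change was 0.36 (standard error 0.11). Opalin encodes a sialylated transmembrane protein found in oligodendrocytes of the central nervous system. It was measured at 38.3 CPM in HipR3, 49.7 in HipR4, 40.3 in HipR7 and 29.97 in HipR11, and at 25.1 in HipR5, 40.2 in HipR9, 33.2 in HipR10 and 24.1 in HipR16. The groups overlapped for this gene, with HipR11 below both HipR9 and HipR10 and HipR3 below HipR9. Its log2 fold change was 0.37 (standard error 0.15), with 0.23 when HipR4 was left out, 0.19 when HipR3 and HipR4 were left out and 0.64 when HipR9 and HipR11 were left out.

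**Figure D1:**
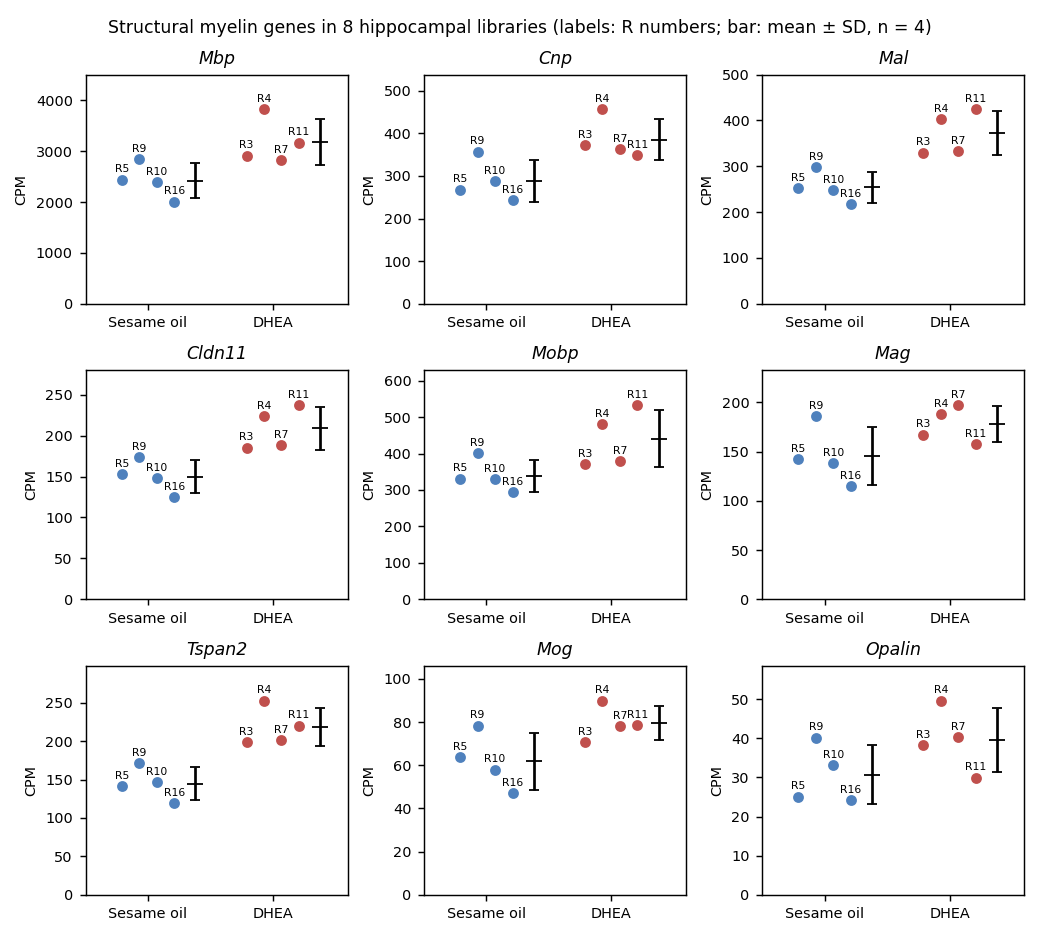
Level of each structural myelin gene in CPM (vertical axes from 0) in the 4 sesame oil libraries (blue) and the 4 DHEA libraries (red), with the R number of each library beside its point and the mean ± SD of each group as a black bar. Mal, Cldn11 and Tspan2 separate the groups, while in the other 6 genes HipR9 reaches into the DHEA range.

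HipR16 held the lowest level of all 9 members. HipR4 held the highest level of 5 members, HipR11 that of Mobp, Mal and Cldn11, and HipR7 that of Mag. Averaged over the 9 genes, the log2 deviation from each gene's mean was 0.41 in HipR4, 0.22 in HipR11, 0.14 in HipR7 and 0.09 in HipR3. It was 0.08 in HipR9, -0.22 in HipR10, -0.24 in HipR5 and -0.48 in HipR16. HipR9 was thus close to HipR3 and far from the other sesame oil libraries. The summed level of the 9 genes was 5107 ± 633 CPM in DHEA and 3838 ± 555 CPM in sesame oil (SD, n = 4 each), between 4613 and 5967 CPM in the former and between 3195 and 4551 CPM in the latter.

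**Figure D2:**
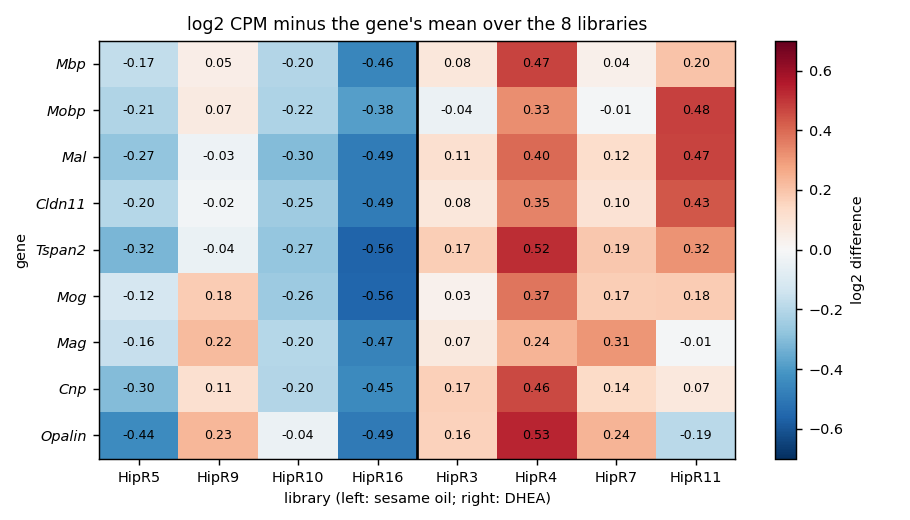
Log2 CPM of each structural myelin gene (rows) in each library (columns) minus the mean of the gene over the 8 libraries, with sesame oil to the left of the line and DHEA to the right, red for higher and blue for lower. HipR16 is low in every row, from -0.56 to -0.38, and HipR11 runs from 0.48 in Mobp to -0.19 in Opalin.

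The direction of the difference was the same for all 9 members under each of the 20 other settings, which included other normalizations, filters and tests and the removal of libraries. The median log2 fold change was 0.34 without HipR3 and HipR4, 0.50 without HipR9 and HipR11, and 0.40 after each library's trend with GC content was removed. Leaving out 1 library at a time gave medians between 0.31 (without HipR16) and 0.53 (without HipR9).

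**Figure D3:**
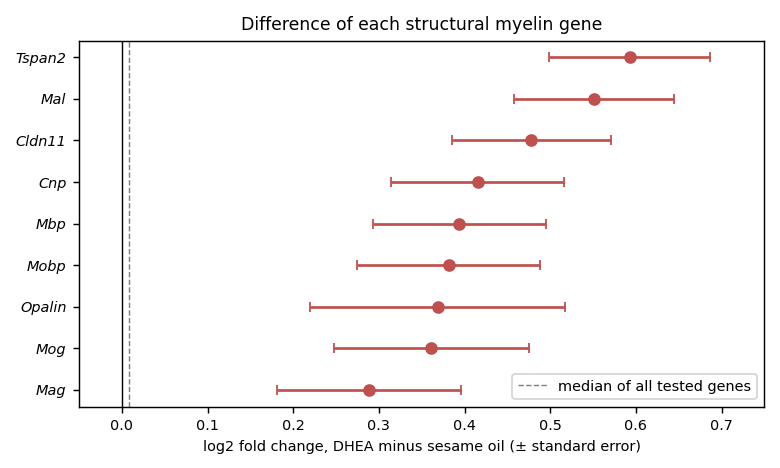
Log2 fold change of each structural myelin gene, DHEA minus sesame oil (horizontal axis), with bars of ± 1 standard error from edgeR's fit, and the median of all tested genes, 0.01, as a dashed line. The estimates run from 0.29 for Mag to 0.59 for Tspan2, and all bars lie to the right of that line.

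Levels of different genes were compared per length, as FPKM (fragments per kilobase of gene, divided by the library's total count) averaged over the 8 libraries. Mbp was highest at 330 ± 61.0 FPKM, followed by Cnp at 126 ± 24.0, Mal at 113 ± 25.9, Cldn11 at 95.7 ± 19.8 and Mobp at 87.6 ± 17.9 FPKM (SD, n = 8). Mag followed at 59.6 ± 10.4, Tspan2 at 41.6 ± 9.80, Mog at 41.3 ± 7.83 and Opalin at 14.9 ± 3.53 FPKM (SD, n = 8). The ranges of neighbours in this order overlapped except between Mbp and Cnp and between Mog and Opalin. Within libraries the order was nevertheless steady, since Mal exceeded Cldn11, Cldn11 exceeded Mobp, Mobp exceeded Mag and Mag exceeded Tspan2 in 8 of 8 libraries, and Cnp exceeded Mal in 7 of 8. Tspan2 and Mog changed places between the groups, with Tspan2 above Mog in the 4 DHEA libraries and below it in the 4 sesame oil libraries, where the gap was as small as 27.47 against 27.54 FPKM in HipR16. The order depends on the length used for each gene, which the deposited values place at 8472 bases for Mbp and 1707 for Mog, and by CPM only 3 of the 9 genes kept their place.

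The members did not contribute in fixed proportions. Tspan2 made up 4.80% ± 0.061 of the summed FPKM of the 9 genes in DHEA and 4.27% ± 0.083 in sesame oil (SD, n = 4 each). Its share was 4.71% to 4.85% in the DHEA libraries and 4.22% to 4.39% in the sesame oil libraries, so the groups did not overlap. Mal made up 12.8% ± 0.950 in DHEA and 11.8% ± 0.242 in sesame oil, and its lowest DHEA library (12.14%, HipR4) lay just above its highest sesame oil library (12.11%, HipR16). The share of Mbp, the most abundant member, was 34.9% to 37.7% in DHEA and 36.1% to 37.5% in sesame oil, with full overlap. These shares come from the same libraries and the same contrast as the levels above and carry no test.

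HipR11, a DHEA library, had a composition of its own. Mobp made up 11.2% of the summed FPKM there and 8.81% to 9.03% in the other DHEA libraries. Opalin made up 1.19% there and 1.72% to 1.79% in the other DHEA libraries. HipR11 was therefore high in Mobp, Mal and Cldn11 and low in Opalin, Mag and Cnp relative to the other members. Per 100 FPKM of Mal, Opalin stood at 8.35 in HipR11 and at 11.7 to 15.9 in the other 7 libraries. Per 100 FPKM of Mobp, Mag stood at 48.6 in HipR11 and at 64.4 to 85.5 elsewhere. Cldn11 stood at 82.4 to 84.1 per 100 FPKM of Mal in the DHEA libraries and at 85.4 to 89.8 in the sesame oil libraries, a narrow range in which the groups did not overlap.

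**Figure D4:**
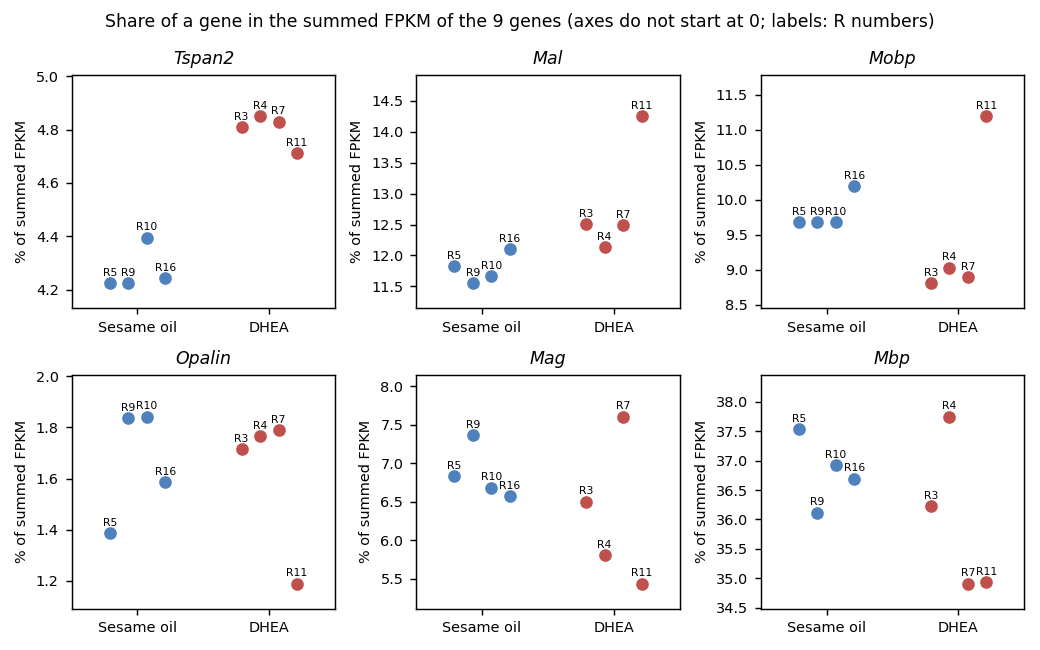
Share of 6 structural myelin genes in the summed FPKM of all 9 genes (vertical axes in percent, not starting at 0) in each sesame oil library (blue) and DHEA library (red). The Tspan2 share lies between 4.71% and 4.85% in DHEA and between 4.22% and 4.39% in sesame oil, and HipR11 has the highest shares of Mobp and Mal and the lowest shares of Opalin and Mag.

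Over the 8 libraries, Pearson's r of log2 CPM between members ranged from 0.530 for Mobp with Opalin to 0.996 for Mal with Cldn11, with a median of 0.889 over 36 pairs. After the group means were removed the median was 0.812 and the range 0.239 to 0.991, so the members also varied together within groups. These values describe 8 libraries whose depth and GC trend differed between the groups. The search for similar genes covered 12780 genes whose mean count was 100 or more. Those most like the mean of the 9 members were Erbin (r = 0.986), Gprc5b (0.984), Scd1 (0.974), Pde8a (0.969), Hacl1 (0.966), Reep3 (0.965), Scd2 (0.964), Plekhb1 (0.964), Arap2 (0.962) and Clic4 (0.961). Erbin encodes a scaffold protein that binds an ErbB receptor, Scd1 and Scd2 encode desaturases of fatty acid synthesis, and Plekhb1 encodes a membrane-binding protein. Plekhb1 was at 360 ± 48.6 CPM in DHEA and 277 ± 34.2 CPM in sesame oil, and Erbin at 165 ± 13.8 and 127 ± 13.5 CPM (SD, n = 4 each). Only Scd2 and Plekhb1 of these 10 were in the lists of myelin genes described next. The genes with the most opposite pattern were Psrc1 (r = -0.963), Amz2 (-0.959), Ttll1 (-0.955), Tmem198 (-0.955) and Fam171a2 (-0.955). By Spearman's rho 3 of the 10 most similar genes were again among the top 10, and by deviations from the group means 2 were, Erbin and Gprc5b.

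Beyond the 9 members, 90 other genes of myelin and oligodendrocytes were examined in 5 lists. Of these, 40 were higher and 1 was lower in DHEA at an unadjusted p under 0.05, beside 4.82% and 4.49% of all genes tested, and 49 did not pass. Their median log2 fold change was 0.19, while that of the 9 members was 0.39 and that of all genes tested 0.01. No gene of these lists had an adjusted p under 0.05 in edgeR, while DESeq2 gave such a value to several, Enpp6, Prr5l and Plaat3 among them. In this list and those that follow, genes counted as higher or lower are those at an unadjusted p under 0.05. Without HipR16 the count of higher genes was 25, and without HipR3 and HipR4 it was 26.

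In the list of other membrane and junction genes, 8 of 20 were higher and 0 lower at an unadjusted p under 0.05, with a median log2 fold change of 0.18. They included Plekhb1 (0.38, standard error 0.09, Benjamini-Hochberg adjusted p = 0.240 in edgeR), Pllp (0.43), the connexin Gjc3 (0.29), Tspan15 (0.30), Gpm6b (0.20), the tetraspanin Cd9 (0.19) and Tmem98 (0.29). Cntnap1 (-0.10), Nfasc (-0.03) and Cntn2 (0.05), whose proteins act where sheath and axon meet near the node, did not pass, and a count per gene does not tell glial from axonal forms.

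Of the 20 genes for myelin enzymes and lipid synthesis, 12 were higher and 0 lower, with a median log2 fold change of 0.26. Enpp6, a choline phosphodiesterase of newly formed oligodendrocytes, had the smallest p among them (log2 fold change 0.64, standard error 0.14, Benjamini-Hochberg adjusted p = 0.222 in edgeR). The groups did not overlap for Enpp6, at 14.2 ± 2.13 CPM in DHEA and 9.13 ± 1.61 CPM in sesame oil (SD, n = 4 each). Ugt8a, which makes galactosylceramide (0.32), Fa2h, the fatty acid hydroxylase (0.29), Aspa (0.40), Cers2 (0.17), Elovl7 (0.46), the transferrin gene Trf (0.24) and Scd2 (0.18) also passed. Elovl1, a fatty acid elongase (-0.01), and Sgpl1 (0.02) did not pass. Enpp2 did not pass either (log2 fold change 0.52, standard error 0.43) and varied with the choroid plexus markers, from 256 CPM in HipR4 to 2317 CPM in HipR3.

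Of the 20 genes for the oligodendrocyte cytoskeleton and other mature functions, 13 were higher and 0 lower, with a median log2 fold change of 0.24. Prr5l was the one with the smallest p (0.57, standard error 0.13, Benjamini-Hochberg adjusted p = 0.230 in edgeR), and its groups did not overlap. Bcas1 (0.39), the cytoskeletal gene Ermn (0.29), Anln (0.31), the cytokine Il33 (0.44), Ndrg1 (0.22) and the tubulin-binding Tppp (0.16) passed as well, whereas Cryab (-0.08) and Apod (0.31, standard error 0.16) did not.

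Transcription factors of the lineage switch on the myelin genes as oligodendrocytes mature. Of 14, 5 were higher and 0 lower, with a median log2 fold change of 0.18. Olig1 (0.20), Sox8 (0.19), Zfp24 (0.19), Zfp488 (0.41) and Nkx2-2 (0.52) passed, the last of these at only 4.41 CPM in DHEA and 3.07 CPM in sesame oil. Myrf, the factor that drives myelin gene transcription (0.17, standard error 0.08), Sox10 (0.09, standard error 0.10) and Olig2 (0.15, standard error 0.09) did not pass. Of 16 receptors and ligands of myelination, 2 were higher, Lpar1 (0.32) and S1pr5 (0.36), and 1 was lower, the Nogo receptor gene Rtn4r (-0.19), with a median of 0.07. The other receptors and ligands of this list, such as Erbb3 (0.18, standard error 0.10), Gpr17 (0.10, standard error 0.08) and Nrg1 (-0.10, standard error 0.15), did not pass.

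Earlier stages of the lineage were measured by 2 further lists. Among 11 markers of oligodendrocyte precursors, Pdgfra (0.25) and Lhfpl3 (0.32) were higher and 0 were lower, with a median log2 fold change of 0.13 and summed levels of 620 ± 43.1 CPM in DHEA and 576 ± 26.6 CPM in sesame oil (SD, n = 4 each). Among 10 markers of newly formed oligodendrocytes, 4 were higher and 0 lower, Enpp6, Tns3 (0.24), Rras2 (0.23) and Cemip2 (0.26), with a median of 0.21. Of 10 markers of the myelin of peripheral nerve, 1 was higher and 1 was lower, Egr2 (-0.86). The peripheral gene Pmp2 was at or near 0, with at most 5 counts in any library.

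Markers of other cell types were measured in the same libraries, and astrocyte and microglia markers were the lists of other cell types with the largest share of genes higher in DHEA. Their part in the result was not tested. At an unadjusted p under 0.05, which 4.82% of all genes tested passed as higher and 4.49% as lower, astrocyte markers were higher in 8 of 11 genes and lower in 0. All 11 were higher by some amount, with a median log2 fold change of 0.18. Their summed level was 6757 ± 502 CPM in DHEA and 5968 ± 360 CPM in sesame oil (SD, n = 4 each), and Slc1a2, a glutamate transporter, was the most abundant. Microglia markers were higher in 5 of 11 genes at this threshold and lower in 0, and in 11 of 11 by some amount, with a median of 0.22 and summed levels of 448 ± 58.3 CPM and 385 ± 27.0 CPM (SD, n = 4 each). Endothelium markers were higher in 3 of 10 genes and lower in 0, with a median of 0.12 and summed levels of 385 ± 30.5 CPM and 349 ± 8.37 CPM (SD, n = 4 each), and Flt1 was the most abundant. Neuron markers were higher in 0 of 14 genes and lower in 3, Rbfox3 (-0.16), Nefm (-0.18) and Nefh (-0.21), with a median of -0.03. Their summed level was 12740 ± 460 CPM in DHEA and 12689 ± 316 CPM in sesame oil (SD, n = 4 each), and Camk2a was the most abundant. No marker of these lists was at 0 in all libraries, and the markers of neurons and glia named here were detected throughout.

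**Figure D5:**
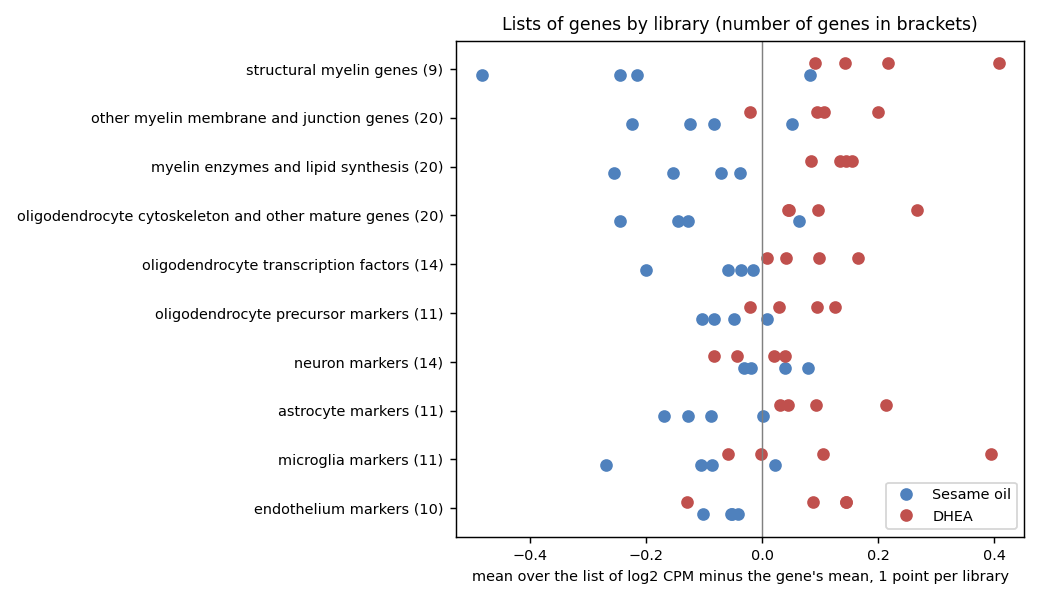
Mean over each list (number of genes in brackets) of log2 CPM minus the mean of each gene, 1 point per library (horizontal axis), for sesame oil (blue) and DHEA (red). The structural myelin genes spread from -0.48 to 0.41, and the neuron markers from -0.08 to 0.08.

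Of 8 choroid plexus markers, 0 passed an unadjusted p under 0.05 in either direction, although 8 of 8 were higher by some amount with a median fitted log2 fold change of 0.44. On the mean of log2 CPM over the list, where HipR4 stood at -3.11, the difference had the other sign (-0.07), so the direction of this list depends on the scale. Their levels had the widest spread of any list. The summed level was 4544 CPM in HipR3, 96.4 in HipR4, 2241 in HipR7 and 4204 in HipR11, and 3173 in HipR5, 519 in HipR9, 2067 in HipR10 and 2299 in HipR16. Ttr, the transthyretin gene, was the most abundant of them. The DHEA library and the sesame oil library with the least choroid plexus RNA, HipR4 and HipR9, were those with the highest mean level of the 9 members in their own groups, and the part of this in the result was not tested. Without HipR4 the median log2 fold change of the members was 0.32, and without HipR9 it was 0.53.

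Genes that overlap a member could share reads with it, because whether strand was used in counting is not stated. Dnajc7, which overlaps Cnp, had 4623 to 5537 counts and a log2 fold change of -0.14 (standard error 0.06). Tspan2os, which overlaps Tspan2, had 1 to 15 counts. Counts were made per gene, so splice forms of Mbp and of the other members were not separated.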

How the data were processed

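RNA from the ventral hippocampus of 4 DHEA-treated and 4 sesame oil-treated mice was sequenced. According to the study's methods and the submitters' processing notes, the authors removed low-quality reads (fastp), aligned the rest to GRCm39 with HISAT2, counted reads per gene with HTSeq and deposited raw counts. Tool versions, annotation and strand setting are not given in the sources used here. The deposited FPKM values were calculated by the authors from these counts, and they served for levels between genes. Groups came from the treatment labels, the labels state no batch, and 0 per-sample columns were left out.

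From the counts of 27612 genes with at least 1 count, CPM (TMM-normalized) and log2 fold changes were computed with edgeR 4.0.16 (quasi-likelihood test, prior count 0.125, Benjamini-Hochberg adjustment) in R 4.3.3. Log2 deviations and correlations used log2(CPM + 0.5). Standard errors were taken from the F statistic (log2 fold change over root F). In these libraries 3 counts correspond to 0.0808 to 0.0952 CPM, which covers counting error only. Replicates are separate mice according to the methods, and all pairs of libraries within a group differed by more than sampling noise. Single values were compared by an exact permutation test. "Passed" refers to an unadjusted p under 0.05.

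The members, the gene lists and the libraries left out were chosen with earlier results of these data known. Named are the members, genes of the lists, and the 10 genes most like and 5 most unlike the members by Pearson's r. Plaat3, Septin4, Septin8, Cemip2 and Ccn3 were matched by a newer symbol than the one listed. Promoters came from RefSeq on GRCm38.p6 and matched 8 of 9 members. GC content was known for 15594 of the 16813 genes whose mean count was 10 or more.

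The alternatives were RLE normalization, DESeq2 1.42.0, at least 10 counts in total, a prior count of 1, filterByExpr, robust moderation, limma-trend (limma 3.58.1) on log2(FPKM + 1) and log2(FPKM + 0.1), removal of the GC trend (lowess, span 0.3), leaving out each library, HipR3 with HipR4, or HipR9 with HipR11, and, added after seeing the data, leaving out the 13 mitochondrial mRNAs. The scripts were tested on simulated counts. Some genes of the lists are counted but not reported by name here. Values of the study's other experiments were not used here, and of its qRT-PCR only the directions were read. Of its own table of differing genes only the sign was looked at, and it is opposite to that of fold changes computed with the deposited labels.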

Additional observations from a re-analysis of the deposited data

Results flagged for a closer look

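Of 72 sets of 4 libraries examined for a library far from the other 3, 5 had one, and 3.6 would be expected by chance at about 1 in 20. The measure is the distance to the nearest other library as a share of the whole range of its group. In the DHEA group, HipR11 had a Mobp share of 11.2% of the summed FPKM of the 9 genes against 8.81% to 9.03%, with a gap of 0.906 of the range. The same library had an Opalin share of 1.19% against 1.72% to 1.79%, with a gap of 0.877 of the range. In the sesame oil group, HipR16 had a Mobp share of 10.2% against 9.68% in each of the others, with a gap of 0.996 of the range. HipR10 had a Tspan2 share of 4.39% against 4.22% to 4.24%, with a gap of 0.881 of the range. On the first principal component, HipR9 scored 0.793 against -17.1 to -14.3 in the other sesame oil libraries, with a gap of 0.841 of the range.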

How the results depend on the processing

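The direction of each of the 9 genes was the same in all 20 alternatives (180 of 180 recomputed fold changes, 0 reversed), and the median log2 fold change ranged from 0.31 to 0.53 on leaving out 1 library and from 0.34 to 0.50 otherwise. The number of members with an unadjusted p under 0.05 was 7 to 9 on leaving out 1 library and 6 to 9 otherwise, and Mag, Mog and Opalin were those lost. The number of all genes with an adjusted p under 0.05, which was 0 by the quasi-likelihood test of edgeR, was 153 with DESeq2, 4 with robust moderation, 1 without HipR3 and HipR4, 38 without HipR9 and HipR11 and 0 to 93 on leaving out 1 library (93 without HipR7, 12 without HipR11). Of the 90 other myelin genes, 40 were higher at an unadjusted p under 0.05, against 26 with limma-trend on log2(FPKM + 1), 26 without HipR3 and HipR4 and 25 (without HipR16) to 43 on leaving out 1 library. Those lower numbered 1, against 2 with limma-trend at either pseudocount, 3 without HipR3 and HipR4, 0 after removal of the GC trend or without HipR9 and HipR11, and 0 to 1 on leaving out 1 library. Of the 10 genes most like the members, Spearman's rho shared 3 and deviations from the group means shared 2. By CPM in place of FPKM, 3 of the 9 members kept their place. The causes were not tested. No paired analysis was run. The library numbers differ between the groups, and the labels name no batch, cage or dissection that would pair the mice. Depth differed between the groups without overlap, so depth and treatment cannot be told apart, and every member had at least 760 counts in every library.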

Other observations

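Lists of regional markers were also measured, since the dissection could differ between mice. Of 8 thalamus markers, 0 were higher and 0 lower at an unadjusted p under 0.05, beside 4.82% and 4.49% of all genes tested, and their summed level was 203 ± 26.8 CPM in DHEA and 179 ± 26.6 CPM in sesame oil (SD, n = 4 each). Zic1, the most abundant of them, ran from 20.4 CPM in HipR16 to 59.1 CPM in HipR4, the libraries with the lowest and the highest mean level of the structural myelin genes. Prkcd, Lef1, Plekhg1 and Calb2 were also higher in HipR4 than in HipR16. Rorb (24.8 CPM in HipR4, 27.1 CPM in HipR16), Slc17a6 (32.0 and 33.3 CPM) and Tnnt1 were lower in HipR4, so not every gene of the list followed this order. The summed level of the list was nevertheless highest in HipR4 (228 CPM) and lowest in HipR16 (158 CPM). In the other libraries it ran from 162 CPM in HipR10 to 221 CPM in HipR7, and its part in the result was not tested. Of 12 markers of hippocampal subfields, Man1a (0.24) and Bok (0.24) were higher and Nptx1 (-0.14) was lower on the log2 scale. Of 10 markers of the dorsal and ventral hippocampus, 0 were higher and 0 lower, with a median log2 fold change of -0.11. Summed levels of this last list were 746 ± 76.5 CPM in DHEA and 751 ± 44.2 CPM in sesame oil (SD, n = 4 each).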
